A study of Homo sapiens with 16 samples.

Results

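The MAX network is a family of basic helix-loop-helix leucine zipper transcription factors, and 9 of its genes were followed here: MYC, MAX, MXD1, MXD3, MXD4, MXI1, MNT, MLX and MGA. They were taken by gene symbol from a table of 60603 genes. All 9 were found, and all 9 passed the filter on low counts in the fits of SKNO-1, of U-937 and of both lines together. RNA was sequenced from 2 human acute myeloid leukaemia lines in 16 libraries, 2 for each of 8 groups. SKNO-1 carries a fusion of RUNX1 with RUNX1T1 and was grown with GM-CSF at 10 ng/mL, and U-937 is a monocytic line grown without it, so line and medium cannot be told apart. Both lines received the solvent DMSO, all-trans retinoic acid (ATRA) at 0.1 µM, Corin at 0.1 µM, or both agents at 0.1 µM each, for 24 h. ATRA is a ligand of the retinoic acid receptors, and Corin blocks both the demethylase LSD1 and the class I histone deacetylases within CoREST. The labels do not say whether the 2 libraries of a group came from separate cultures, so the p-values measure the spread between these libraries, which may be technical.

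MYC needs MAX as its partner: the MYC-MAX dimer binds the E-box sequence CACGTG and recruits acetyltransferases to genes of ribosome production, metabolism and cell division. The MXD proteins, MXI1 and MNT compete for MAX, bind the same E-boxes and recruit the SIN3 corepressor with its histone deacetylases. In myeloid cells MYC is known to fall and MXD1 to rise when precursors leave the cell cycle and mature. MLX pairs with MNT, MXD1 or MXD4 and with the glucose-sensing Mondo proteins, and MGA joins MAX to the repressive polycomb complex PRC1.6.

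Because the dimers of the network bind CACGTG, the promoters of its own genes were searched for that hexamer, which reads the same on both strands. RefSeq promoter windows on GRCh38.p14 matched 8 of the 9 genes, with 13 windows in all, and the 250 bases before each start were searched. No window was matched for MYC, so its promoter was not searched. The hexamer was found in the windows of 3 genes, MXD4, MNT and MLX, and not in those of the other 5. Both MAX windows and the MXD1 window lie inside these genes as GENCODE places them, so the bases before their GENCODE gene ends were not searched. Among all 35116 RefSeq windows of that length, 6.34% hold it. That is a share of windows and not of genes, and MXI1 and MGA had 3 windows each and MAX 2. The matches, with the hexamer in capitals and 12 bases on either side, are printed 5′ to 3′ because these windows hold the hexamer.
MXD4, chr4:2262330-2262359, minus strand: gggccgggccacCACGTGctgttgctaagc
MNT, chr17:2401236-2401265, minus strand: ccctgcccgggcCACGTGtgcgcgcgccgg
MLX, chr17:42567038-42567067, plus strand: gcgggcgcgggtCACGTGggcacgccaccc
The hexamer begins 238 bases upstream of the RefSeq start in MXD4, 193 in MNT and 50 in MLX; the RefSeq starts of MNT and MLX differ from the GENCODE gene ends given below. A match describes the letters in the window and is not a measurement of binding, which was not part of these data.

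The 16 libraries held between 28.4 and 37.8 M counts. Levels are given as normalised read counts (CPM, counts per M) on totals scaled by the trimmed mean of M values, a scale on which 1 gene is compared between libraries. A gene is called changed where the adjusted p of edgeR's quasi-likelihood test is under 0.05 over all genes tested. RUNX1T1 stood at 95.4 to 155 CPM in SKNO-1 and at 0 to 0.0330 CPM in U-937, and HOXA9 at 0 CPM in SKNO-1 and 37.1 to 68.0 CPM in U-937. CD34 was at 0.0615 to 1.98 CPM in SKNO-1, and the monocyte marker CD14 at 0 to 0.227 CPM in U-937, so CD34 and CD14 were nearly absent there. KIT, in contrast, was at 297 to 647 CPM in SKNO-1 and 0.180 to 1.03 CPM in U-937. Of the myeloid genes, MPO was at 1847 to 4006 CPM in SKNO-1 and 0.103 to 0.453 CPM in U-937. CD33 was at 87.6 to 125 CPM in SKNO-1 and 68.4 to 114 CPM in U-937, and SPI1 at 15.1 to 29.8 CPM and 11.3 to 28.9 CPM. The T cell genes CD3D and CD3E, the haemoglobin gene HBB and the epithelial genes EPCAM and KRT19 were at or near 0. The SKNO-1 DMSO libraries stood apart from each other: the SD of their log2 difference over genes was 0.337, against 0.103 to 0.186 in the other 7 pairs. That difference followed GC content across genes (r = 0.796 over 9896 genes, which are not independent). Other pairs showed this more weakly, with r = 0.588 for U-937 DMSO, -0.502 for SKNO-1 ATRA and 0.421 for U-937 with both agents. In the remaining pairs r lay between -0.172 and 0.102. Some results in SKNO-1 that rest on its DMSO libraries are therefore also given with a DMSO library left out. These are results of the network genes and of the list of genes that MYC activates, and not every such value is printed. For other genes and lists the SKNO-1 changes and counts are given with both DMSO libraries only. Their dependence on either library is not shown.

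MYC RNA fell steeply in U-937 with ATRA and further with ATRA and Corin together, while with Corin alone its libraries overlapped those with DMSO. In U-937 MYC stood at 212 and 201 CPM with DMSO, 38.7 and 37.0 CPM with ATRA, 209 and 193 CPM with Corin, and 4.23 and 4.53 CPM with both. The ATRA libraries lay below every DMSO and Corin library, and the libraries with both agents lay below all others, whereas the Corin and DMSO libraries overlapped. ATRA lowered MYC 5.46-fold (log2 change -2.45, SE 0.100, adjusted p = 2.43e-15). Both agents lowered it 46.9-fold (log2 change -5.55, SE 0.123, adjusted p = 1.19e-20), which placed MYC 49th from the lowest of 17717 genes. For Corin alone the log2 change was -0.03 with a 95% interval of -0.23 to 0.16 (adjusted p = 0.871).

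Departure from additivity compares the combined log2 change with what the single changes add up to, so that 0 means simple addition on the log2 scale. For MYC in U-937 it was -3.07 (SE 0.151, adjusted p = 1.2e-12), so MYC was 8.41-fold lower than the sum of the single effects gives. Against ATRA alone, adding Corin lowered MYC 8.60-fold (log2 change -3.11, SE 0.119, adjusted p = 8.4e-16). The count behind the lowest level was 149 and 137 reads per library. These are bulk libraries, in which fewer cells with a transcript and less transcript per cell cannot be told apart. The myeloid maturation gene ITGAM in U-937 was at 4.42 to 4.65 CPM with DMSO, 96.0 to 105 CPM with ATRA, 50.3 to 55.5 CPM with Corin and 353 to 367 CPM with both agents. LYZ, which encodes lysozyme, was at 208 to 235 CPM with DMSO, 269 to 275 CPM with ATRA, 1887 to 2264 CPM with Corin and 2455 to 2669 CPM with both. ITGAM was thus higher with ATRA than with Corin, whereas LYZ was higher with Corin than with ATRA. The part of maturation in the MYC result was not tested.

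**Figure D1:**
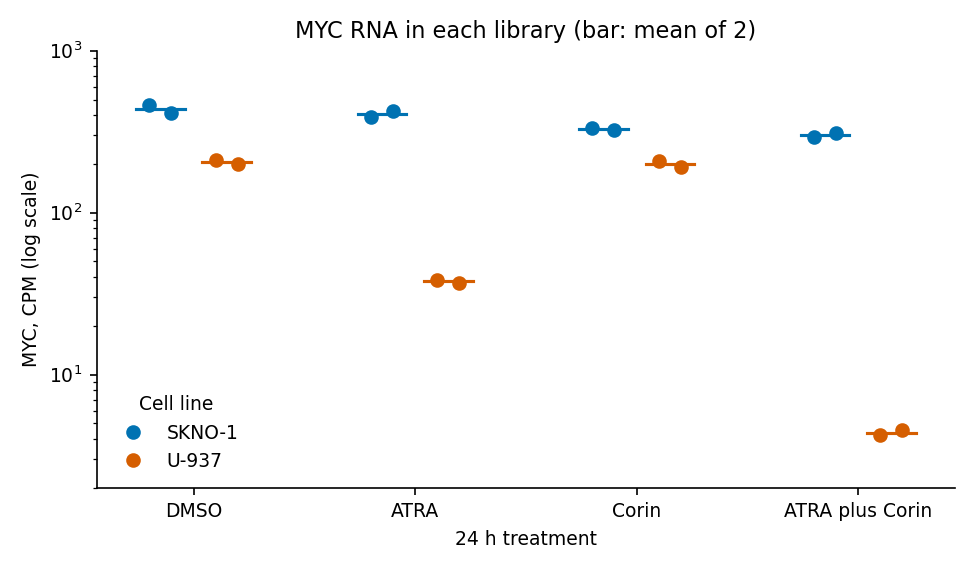
MYC level (CPM, log axis) in each library of SKNO-1 (blue) and U-937 (orange) after 24 h with DMSO, ATRA, Corin or both; points are libraries and bars the mean of 2. The U-937 points fall from about 200 CPM with DMSO to 4.23 and 4.53 CPM with both agents, while all SKNO-1 points lie between 295 and 464 CPM.

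In SKNO-1 MYC was the most abundant member per length and moved little. It stood at 464 and 410.5 CPM with DMSO, 388 and 425 CPM with ATRA, 332 and 324 CPM with Corin, and 295 and 312 CPM with both. The Corin libraries and those with both agents lay below both DMSO libraries, while the ATRA and DMSO libraries overlapped. Corin lowered MYC 1.33-fold (log2 change -0.41, SE 0.0826, adjusted p = 0.00597), and both agents lowered it 1.39-fold (log2 change -0.48, SE 0.0826, adjusted p = 0.00224). With ATRA the log2 change was -0.07, with a 95% interval of -0.26 to 0.12 (adjusted p = 0.767). Departure from additivity of MYC in SKNO-1 was 0.00 (95% interval -0.27 to 0.27, adjusted p = 0.998). Without DMSO replicate 1 the changes of MYC were -0.32 with Corin and -0.38 with both agents, and without DMSO replicate 2 they were -0.54 and -0.59, each still called. Without DMSO replicate 2 MYC was also called lower with ATRA (-0.22, adjusted p = 0.00442), and the call with Corin was lost without Corin replicate 2 (-0.40, adjusted p = 0.0556). ITGAM rose in SKNO-1 as well, from 0.338 to 0.450 CPM with DMSO to 116 to 117 CPM with both agents, and its part in the MYC result was not tested.

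The responses of MYC differed between the lines when the difference itself was tested. The U-937 response minus the SKNO-1 response was -2.34 for ATRA (SE 0.125, adjusted p = 2.85e-10) and -5.03 for both agents (SE 0.140, adjusted p = 1.43e-14) on the log2 scale. For Corin it was 0.38 (SE 0.122, adjusted p = 0.0496), a call that was lost in 13 of the 16 fits that leave out 1 library, each library in turn, with differences of 0.26 to 0.51 over those fits. With DMSO alone, MYC was 2.12-fold lower in U-937 than in SKNO-1 (log2 difference -1.08, SE 0.0875, adjusted p = 2.06e-09).

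Across the 9 members the number called differed by line and agent, and each count stands beside the share of all genes tested that were called in the same comparison. In U-937 ATRA changed 5 of 9 where 41.8% of genes were called: 3 rose (21.7% of genes) and 2 fell (20.1%). Corin changed 2 of 9 in U-937 against 12.9% of genes, both upward (8.55% of genes rose and 4.4% fell). Both agents together changed 6 of 9 in U-937 against 65.3%: 5 rose (33.1%) and 1 fell (32.2%). In SKNO-1 ATRA changed 0 of 9 by edgeR against 6.76% (2.96% higher and 3.79% lower), with 3 members under an unadjusted p of 0.05 and 0 called by DESeq2. Corin changed 3 of 9 in SKNO-1 against 37.9%: 1 rose (20.5%) and 2 fell (17.3%). Both agents changed 4 of 9 there against 46.7%: 1 rose (24.7%) and 3 fell (22%). Departure from additivity was called for 4 of 9 in U-937 against 23.4%, with 2 members higher (8.09%) and 2 lower (15.3%) than addition gives. In SKNO-1 it was called for 0 of 9 by edgeR against 0.463% (0.315% higher and 0.149% lower), with 0 members under an unadjusted p of 0.05 and 0 called by DESeq2. The shares of members are close to those of all genes in most of these comparisons, so what follows describes single genes.

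Adding Corin to ATRA changed 5 of 9 members in U-937 against 47.4% of genes, with 3 higher (22.5%) and 2 lower (24.8%). In SKNO-1 the same step changed 3 of 9 against 44.8%, with 1 higher (23%) and 2 lower (21.8%). Adding ATRA to Corin changed 5 of 9 in U-937 against 60.5%, with 4 higher (29.9%) and 1, MYC, lower (30.6%). In SKNO-1 that step changed 1 of 9, MNT (0.83, adjusted p = 0.0312), against 10.4% (4.82% higher and 5.6% lower), a call that was lost without any 1 of 6 libraries, these being both ATRA, both Corin and both combination libraries, with changes of 0.62 to 1.02. The response differed between the lines for 4 of 9 with ATRA against 19.4% of genes, 3 of them higher in U-937 (10.6%) and 1 lower (8.81%). With Corin it differed for 1 of 9 against 12.8%, higher in U-937 (5.28% of genes higher and 7.49% lower). With both agents it differed for 6 of 9 against 40.6%, with 5 higher (17.9%) and 1, MYC, lower (22.7%).

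**Figure D2:**
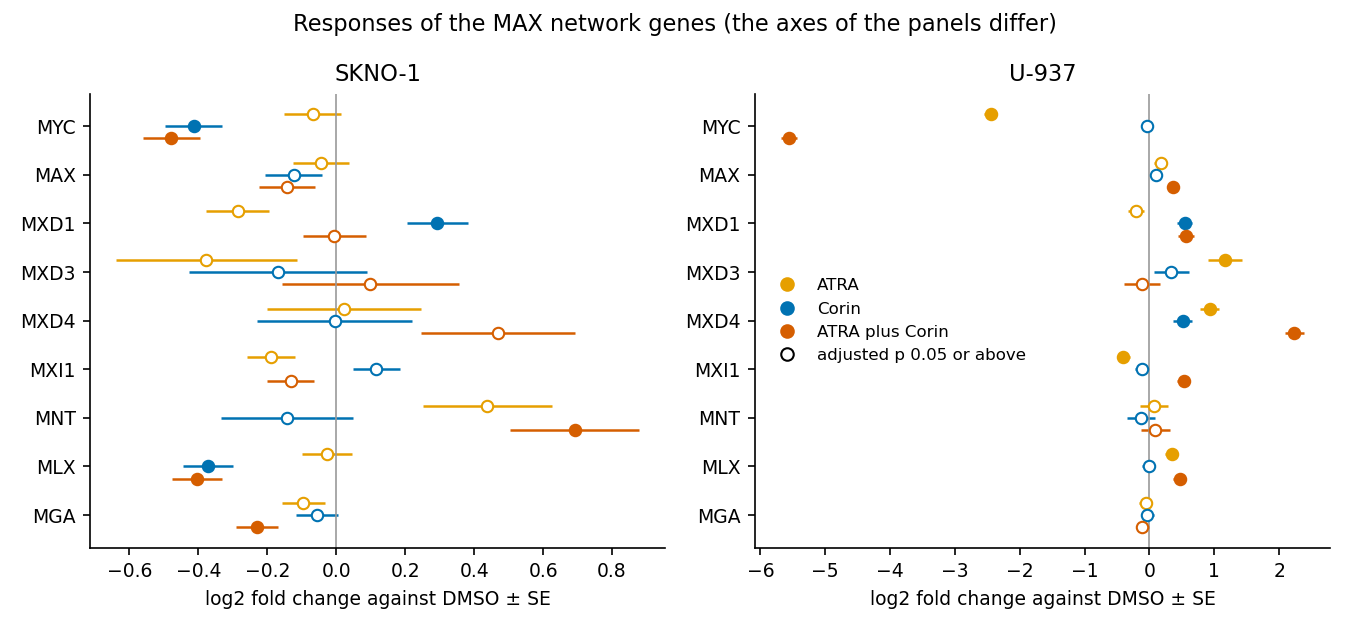
Log2 fold change against DMSO ± SE (horizontal axis, different in each panel) of the 9 genes in SKNO-1 (left) and U-937 (right); colour gives the treatment and filled points have an adjusted p under 0.05. MYC in U-937 lies far to the left at -2.45 with ATRA and -5.55 with both agents, and MXD4 lies farthest to the right at 2.24 with both.

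MAX, the partner of MYC and of its antagonists, ranged less over the libraries than MYC. MAX lies on chromosome 14 at 65006174 to 65102695, minus strand (GRCh38, GENCODE 44, as for the positions below), and overlaps FNTB on the opposite strand. In U-937 it stood at 48.7 and 48.1 CPM with DMSO, 55.6 and 53.5 CPM with ATRA, 53.2 and 50.3 CPM with Corin, and 63.4 and 60.4 CPM with both. All treated libraries lay above both DMSO libraries, yet only both agents gave a call (log2 change 0.36, SE 0.0970, adjusted p = 0.00222). On the scale of transcripts per M (TPM), which corrects for length but not for composition, MAX with both agents was at 29.9 and 25.5, overlapping the 28.9 and 29.8 with DMSO. In SKNO-1 MAX ranged from 60.8 to 75.1 CPM over the 8 libraries and was called in no treatment against DMSO. Without SKNO-1 DMSO replicate 2 it was called lower with ATRA (-0.19), Corin (-0.25) and both (-0.26), and after removal of the GC trend with both (-0.18). The response of MAX to both agents was 0.55 higher in U-937 than in SKNO-1 (SE 0.119, adjusted p = 0.00101).

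MXD4, the MXD protein typical of resting and differentiating cells, showed the largest rise of the 9 genes against DMSO. It lies on chromosome 4 at 2247432 to 2262109, minus strand. In U-937 it stood at 5.47 and 5.14 CPM with DMSO, 9.41 and 10.9 CPM with ATRA, 7.64 and 7.45 CPM with Corin, and 25.5 and 24.4 CPM with both. The 4 groups did not overlap, and the order was DMSO, Corin, ATRA and both agents. Both agents raised MXD4 4.71-fold (log2 change 2.24, SE 0.141, adjusted p = 1.35e-12), and ATRA raised it 1.90-fold (log2 change 0.93, SE 0.143, adjusted p = 1.25e-05). Departure from additivity was 0.80 (SE 0.196, adjusted p = 0.00387), so MXD4 rose beyond the sum of the single effects while MYC fell beyond it. With Corin alone the log2 change was 0.51 (SE 0.146, adjusted p = 0.0207), but this call was lost without any single Corin or DMSO library (0.46 to 0.55, with adjusted p of 0.0509 to 0.146) and with DESeq2 (adjusted p = 0.0505).

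The 250 bases before the MXD4 start, with the hexamer CACGTG in capitals, are printed because MXD4 moved most among the genes that hold it, and the hexamer stands near the upstream end.
MXD4, chr4:2262110-2262359, minus strand: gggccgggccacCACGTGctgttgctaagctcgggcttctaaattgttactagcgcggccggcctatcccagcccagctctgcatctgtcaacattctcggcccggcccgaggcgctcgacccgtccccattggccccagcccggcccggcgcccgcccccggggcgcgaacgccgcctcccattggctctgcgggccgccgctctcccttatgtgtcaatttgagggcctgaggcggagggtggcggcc
In SKNO-1 MXD4 stood at 14.5 and 8.71 CPM with DMSO, 11.2 and 11.8 CPM with ATRA, 10.97 and 12.2 CPM with Corin, and 14.9 and 16.2 CPM with both. The DMSO libraries enclosed every ATRA and Corin library, so no direction can be read there. Without DMSO replicate 1 MXD4 was called higher with ATRA (0.42), Corin (0.41) and both (0.90), and without DMSO replicate 2 it was called lower with ATRA (-0.36) and Corin (-0.36). The response of MXD4 to both agents was 1.81 higher in U-937 than in SKNO-1 on the log2 scale (SE 0.247, adjusted p = 7.56e-06).

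MXI1, also known as MXD2, was the most abundant of the MYC antagonists per length, and ATRA and the combination moved it in opposite directions in U-937. It lies on chromosome 10 at 110207605 to 110287365, plus strand. It stood at 35.2 and 36.5 CPM with DMSO, 26.8 and 27.5 CPM with ATRA, 33.8 and 32.3 CPM with Corin, and 50.0 and 53.1 CPM with both. The ATRA libraries lay below and the libraries with both agents above all others. ATRA lowered MXI1 by a log2 change of -0.40 (SE 0.101, adjusted p = 0.00236), while both agents raised it by 0.53 (SE 0.0997, adjusted p = 6.16e-05). Departure from additivity was 1.05 (SE 0.142, adjusted p = 4.55e-06). In SKNO-1 MXI1 ranged from 45.3 to 59.3 CPM and was called in no treatment against DMSO, with log2 changes of -0.19 for ATRA, 0.12 for Corin and -0.13 for both. Without SKNO-1 DMSO replicate 1 it was called lower with ATRA (-0.26) and both (-0.17), and without DMSO replicate 2 with ATRA (-0.21).

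MXD1, the founding MXD protein and known to rise during myeloid maturation, rose in U-937 with Corin and with both agents. It lies on chromosome 2 at 69897688 to 69942945, plus strand, and overlaps SNRNP27 on the same strand. It stood at 17.1 and 17.8 CPM with DMSO, 15.7 and 14.7 CPM with ATRA, 22.6 and 28.2 CPM with Corin, and 25.7 and 25.6 CPM with both. Every library with Corin lay above every library without it. The log2 change was 0.54 with Corin (SE 0.121, adjusted p = 0.00329) and 0.56 with both agents (SE 0.122, adjusted p = 0.000295), and the first of these was lost without Corin replicate 2 (0.37, adjusted p = 0.0805). With ATRA the log2 change was -0.20 (95% interval -0.46 to 0.06, adjusted p = 0.205), and adding Corin to ATRA raised MXD1 by 0.76 (SE 0.122, adjusted p = 1.42e-05). In SKNO-1 MXD1 stood at 27.9 and 33.3 CPM with DMSO, 24.98 and 23.9 CPM with ATRA, 37.2 and 37.7 CPM with Corin, and 29.0 and 29.9 CPM with both. The Corin libraries were again the highest (log2 change 0.29, SE 0.0896, adjusted p = 0.0338), but the call was lost with DESeq2 (adjusted p = 0.0527) and when any of 7 libraries was left out, with changes of 0.17 to 0.30 in those 7 fits. Those 7 were DMSO replicate 1 and all the Corin, ATRA and combination libraries. With ATRA MXD1 was called lower in SKNO-1 without DMSO replicate 1 (-0.43), without DMSO replicate 2 (-0.22) and after removal of the GC trend (-0.27).

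MXD3, which among the MXD proteins is linked to dividing cells, was low throughout and rose in U-937 with ATRA. It lies on chromosome 5 at 177301461 to 177312757, minus strand. It stood at 2.72 and 1.61 CPM with DMSO, 4.53 and 5.25 CPM with ATRA, 2.26 and 3.24 CPM with Corin, and 2.16 and 1.82 CPM with both. The ATRA libraries lay above all others, which overlapped. ATRA raised MXD3 by a log2 change of 1.17 (SE 0.261, adjusted p = 0.000841), whereas with both agents the change was -0.12 (95% interval -0.69 to 0.46). Departure from additivity was -1.62 (SE 0.376, adjusted p = 0.00235), and adding Corin to ATRA lowered MXD3 by a log2 change of -1.29 (SE 0.263, adjusted p = 0.000271). In SKNO-1 MXD3 was at 5.22 and 3.07 CPM with DMSO, a spread that covered all but 1 of the other 6 libraries, which ranged from 2.91 to 4.32 CPM. MXD3 was called higher with both agents without SKNO-1 DMSO replicate 1 (0.54), and lower with ATRA (-0.77) and Corin (-0.54) without DMSO replicate 2. MXD3 overlaps RAB24 on its own strand and PRELID1 on the other, so its reads are uncertain.

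MNT, the broadly expressed antagonist of MYC in dividing cells, lies on chromosome 17 at 2384073 to 2401104, minus strand. It was 2.54-fold higher in U-937 than in SKNO-1 with DMSO (log2 difference 1.34, SE 0.224, adjusted p = 3.55e-05). Of the 9 members 9 were called in that comparison, against 64.8% of all genes, MNT higher in U-937 (31.7% of genes) and the other 8 lower (33.1%). The call of MXD3 there (-0.93) was lost without SKNO-1 DMSO replicate 1 (-0.44) or U-937 DMSO replicate 2 (-0.57). In SKNO-1 MNT stood at 4.14 and 3.78 CPM with DMSO, 5.26 and 5.19 CPM with ATRA, 3.21 and 3.96 CPM with Corin, and 7.02 and 5.33 CPM with both. The libraries with ATRA, alone or with Corin, lay above those without it. Both agents raised MNT by a log2 change of 0.69 (SE 0.186, adjusted p = 0.0169), and this call was lost without combination replicate 1 (0.47, adjusted p = 0.137), after removal of the GC trend (0.35, adjusted p = 0.16) and in a fit of only the 4 libraries compared (0.70, adjusted p = 0.0618). In U-937 MNT ranged from 7.87 to 13.1 CPM, its groups overlapped, and no treatment was called.

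MLX moved in opposite directions in the 2 lines. It lies on chromosome 17 at 42567072 to 42573239, plus strand. In U-937 it stood at 36.5 and 39.1 CPM with DMSO, 48.2 and 47.6 CPM with ATRA, 38.4 and 36.6 CPM with Corin, and 51.3 and 52.7 CPM with both. Libraries with ATRA lay above those without it. MLX rose by a log2 change of 0.47 with both agents (SE 0.0989, adjusted p = 0.000235) and of 0.34 with ATRA (SE 0.0988, adjusted p = 0.00742). The ATRA call was lost without either ATRA library (0.33 and 0.34) and without DMSO replicate 1 (0.29), with adjusted p of 0.0680 to 0.0874. On the TPM scale the MLX levels with both agents, 20.9 and 18.8, overlapped those with DMSO, 18.3 and 19.8.

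In SKNO-1 MLX stood at 71.5 and 65.7 CPM with DMSO, 66.5 and 64.8 CPM with ATRA, 53.4 and 52.5 CPM with Corin, and 49.5 and 50.7 CPM with both. Libraries with Corin lay below those without it. The log2 change of MLX was -0.37 with Corin (SE 0.0732, adjusted p = 0.00556) and -0.40 with both agents (SE 0.0733, adjusted p = 0.00282), and the first of these was lost without Corin replicate 2 (-0.36, adjusted p = 0.0518) and with only the 4 libraries compared (adjusted p = 0.055). The response of MLX to both agents differed between the lines by 0.91 (SE 0.118, adjusted p = 4.01e-06). MLX overlaps PSMC3IP on the opposite strand, and the sources used here do not give the strand setting of the counting.

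MGA, the scaffold of PRC1.6, lies on chromosome 15 at 41621134 to 41773081, plus strand. In U-937 it ranged from 143 to 172 CPM, its lowest library being 1 of the 2 with both agents, and no treatment was called; on library totals both agents gave a call (-0.24, adjusted p = 0.0121). In SKNO-1 it stood at 451 and 512 CPM with DMSO, 447 and 431 CPM with ATRA, 466 and 459 CPM with Corin, and 403 and 389.6 CPM with both. The libraries with both agents were the lowest (log2 change -0.23, SE 0.0619, adjusted p = 0.0171), a call lost without combination replicate 1 (-0.26, adjusted p = 0.0607) or replicate 2 (-0.21, adjusted p = 0.118) and with only the 4 libraries compared (-0.22, adjusted p = 0.102). Without SKNO-1 DMSO replicate 1 MGA was also called lower with ATRA (-0.21) and Corin (-0.15). MGA was the member with the largest fold difference between untreated lines, 2.85-fold lower in U-937 (log2 difference -1.51, SE 0.0922, adjusted p = 3.1e-11).

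Levels of different genes were compared per length, in the TPM that the authors deposited. In U-937 with DMSO MYC was highest at 102 to 104 TPM, then MAX at 28.9 to 29.8 TPM and MGA at 23.6 to 24.2 TPM. MLX at 18.3 to 19.8 TPM and MXI1 at 18.4 to 19.4 TPM followed and overlapped each other. MXD1 at 3.8 to 3.83 TPM, MNT at 2.47 to 3.09 TPM, MXD4 at 1.6 to 1.74 TPM and MXD3 at 0.98 to 1.72 TPM were the lowest, and of these only MXD4 and MXD3 overlapped. With both agents MYC fell to 1.40 to 1.58 TPM, below MXD4 at 5.49 to 6.62 TPM and above MXD3 at 0.74 to 1.03 TPM. In SKNO-1 with DMSO MYC at 159 to 200 TPM was again the highest, and MGA at 41.1 to 62.4 TPM came before MAX at 32.6 to 40.5 TPM. MNT was the lowest there, at 0.78 to 1.19 TPM.

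**Figure D3:**
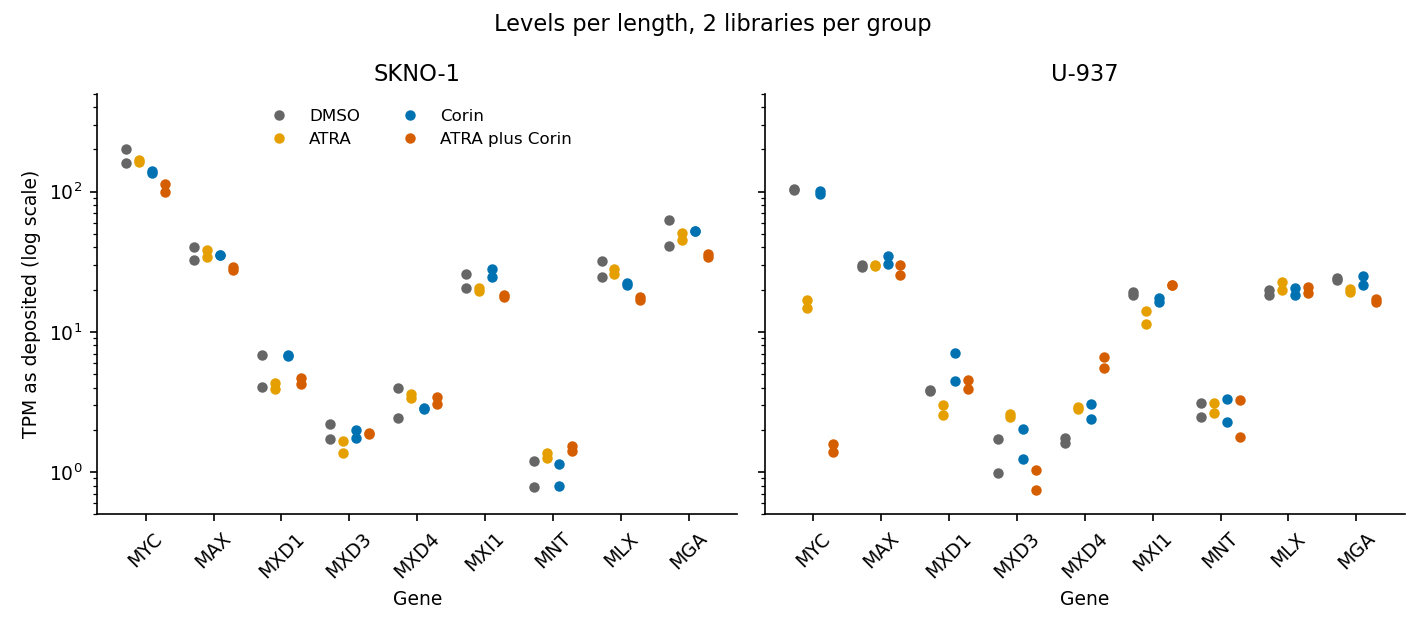
Level per length (TPM as deposited, log axis) of the 9 genes in SKNO-1 (left) and U-937 (right); each point is 1 library and colour gives the treatment. MYC is the highest gene in every SKNO-1 library and in U-937 with DMSO or Corin, and drops to 1.40 to 1.58 TPM in U-937 with both agents.

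The balance of the antagonists to MYC was taken as the summed TPM of MXD1, MXD3, MXD4, MXI1 and MNT divided by the TPM of MYC in the same library. In U-937 this ratio was 0.275 and 0.278 with DMSO, 1.51 and 1.48 with ATRA, 0.277 and 0.327 with Corin, and 23.3 and 23.8 with both. The DMSO and Corin libraries overlapped, and the ratio passed 1 in the ATRA and combination libraries only. The sum of the antagonists itself moved little, from 28.5 ± 0.191 TPM (SD, n = 2) with DMSO to 35.1 ± 2.52 TPM with both, while MYC went from 103 ± 1.71 to 1.49 ± 0.127 TPM. MXI1 supplied 51.7% to 68.2% of that sum in the U-937 libraries. In SKNO-1 the ratio was 0.199 and 0.190 with DMSO, 0.191 and 0.178 with ATRA, 0.288 and 0.277 with Corin, and 0.295 and 0.257 with both. Every SKNO-1 library with Corin had a higher ratio than every library without it. With 2 libraries against 2, an exact two-sided permutation test cannot go below p = 0.333, so no test is given for the ratio. It describes RNA and not the amount of the proteins.

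**Figure D4:**
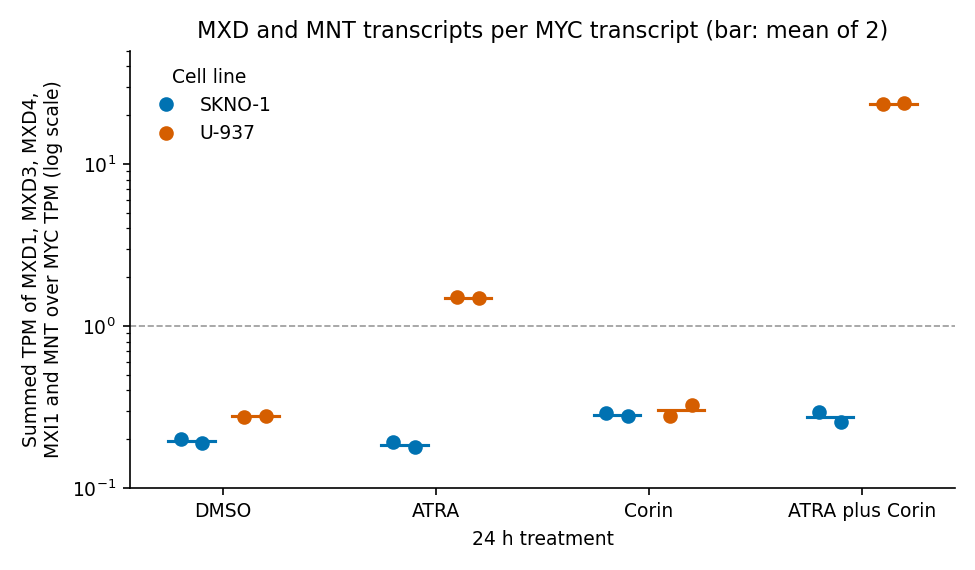
Summed TPM of MXD1, MXD3, MXD4, MXI1 and MNT over MYC TPM (log axis) in each library of SKNO-1 (blue) and U-937 (orange) by treatment; points are libraries, bars the mean of 2, and the dashed line marks a ratio of 1. U-937 rises to 23.3 and 23.8 with both agents, while all SKNO-1 libraries lie between 0.178 and 0.295.

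Genes that MYC is known to activate were followed as a list of 28 genes of ribosome assembly, nucleotide and polyamine synthesis, glycolysis and the cell cycle. In U-937 28 of 28 fell with both agents, where 32.2% of all genes fell, with a median log2 change of -2.15 against 0.03 for all genes tested. With ATRA 27 of 28 fell, against 20.1% of all genes, with a median of -0.95 against 0.02. Corin alone lowered 2 of 28 there against 4.4% of all genes (median -0.17 against 0.00), CCND2 and CDC25A, a count that became 4 with DESeq2, 7 on library totals and 11 after removal of the GC trend. Departure from additivity was negative and called in 25 of 28, against 15.3% of all genes, with a median of -0.99 against -0.03 for all genes. The list was chosen with earlier results of these data known and is described only by its counts and medians.

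Among these genes the cell cycle phosphatase CDC25A stood in U-937 at 99.2 and 117 CPM with DMSO, 63.9 and 66.9 CPM with ATRA, 81.9 and 72.9 CPM with Corin, and 7.19 and 7.07 CPM with both. Its fall with both agents (log2 change -3.92) went beyond the sum of the single effects by -2.71. CCND2, which encodes cyclin D2, fell by 3.93 on the log2 scale with both agents and SLC7A5, a subunit of the large neutral amino acid transporter, also fell (-3.75). TERT, the catalytic subunit of telomerase, had 52 and 40 counts with DMSO, 36 and 39 with Corin, 1 and 0 with ATRA, and 0 and 1 with both, so it was at the detection limit wherever ATRA was present. In departure from additivity BOP1 (-1.93), SLC7A5 (-1.64) and MRTO4 (-1.61), of which BOP1 and MRTO4 act in assembly of the large ribosomal subunit, followed CDC25A.

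In SKNO-1 Corin lowered 21 of the 28 genes, against 17.3% of all genes (median -0.42 against 0.00), and both agents lowered 22, against 22% (median -0.44 against 0.05). ATRA changed 0 by edgeR and 0 by DESeq2, against 6.76% (median -0.03 against 0.01). TFRC, the transferrin receptor, fell most, by 1.21 on the log2 scale with Corin and 1.27 with both. CAD, the enzyme that starts pyrimidine synthesis, fell by 1.02 with Corin and LDHA, the lactate dehydrogenase subunit, by 0.92 with both. CDC25A was lower in both comparisons (-0.88 and -0.81). Departure from additivity was called for 0 of the 28 genes in SKNO-1 by edgeR and 0 by DESeq2, against 0.463% of all genes. With no filter 3 genes were called higher. Calls in both directions appeared when 1 DMSO library was left out, with medians of -0.06 without replicate 1 and 0.01 without replicate 2. With ATRA, genes of the list were also called when 1 DMSO library was left out. The ATRA medians were then 0.005 without replicate 1 and -0.11 without replicate 2, so the ATRA count of 0 rests on the pair of DMSO libraries. The Corin count was 13 where only the 4 libraries compared were fitted, and it also fell when 1 Corin library was left out. The Corin median was -0.34 and -0.53 without DMSO replicate 1 and 2. The share of all genes called in these other fits is not given here.

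**Figure D5:**
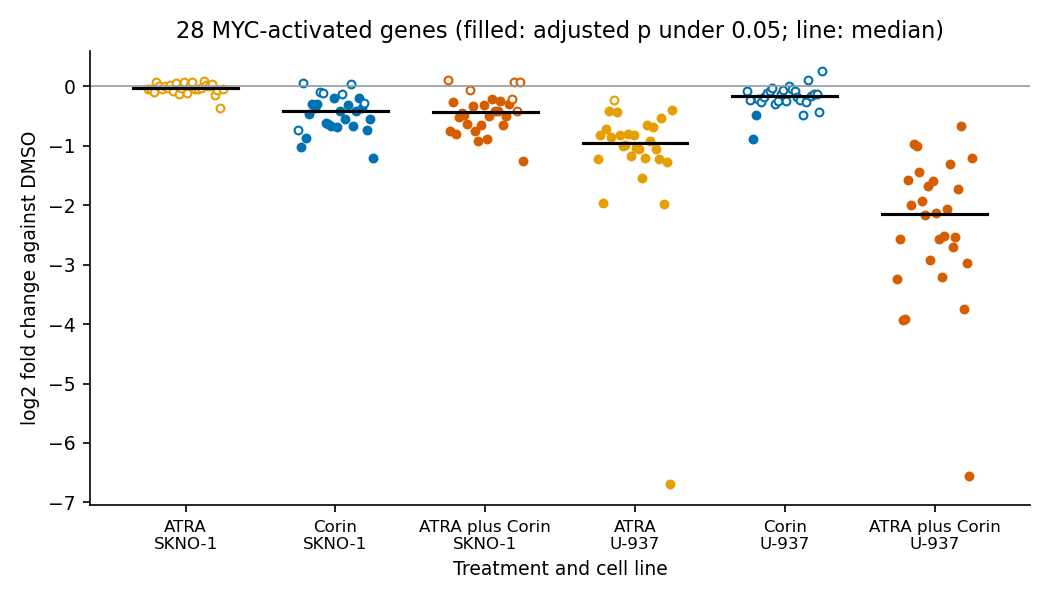
Log2 fold change against DMSO (vertical axis) of the 28 MYC-activated genes by treatment and line; each point is a gene, filled where the adjusted p is under 0.05, and black lines are medians of the moderated changes. Medians are near 0 for ATRA in SKNO-1 and lowest, at -2.15, for both agents in U-937; the lowest point for ATRA and for both agents in U-937 is TERT, whose fitted value there rests on 1 count.

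Genes that MYC represses were a list of 5. In U-937 3 of 5 rose with both agents and 0 fell, against 33.1% and 32.2% of all genes (median 2.17 against 0.03 for all genes). CDKN1A, the cell cycle inhibitor p21, stood at 2.42 and 2.72 CPM with DMSO and 57.3 and 64.1 CPM with both (log2 change 4.57). CDKN2B, the inhibitor p15, was at 2.15 and 2.20 CPM with DMSO, 2.08 and 2.02 CPM with ATRA, 3.23 and 2.86 CPM with Corin, and 13.01 and 11.995 CPM with both. Its departure from additivity was 2.12, the only call among the 5, where 8.09% of all genes were called higher. NDRG1, a stress and differentiation gene, rose by 2.17, while CDKN1B and GADD45A were not called (-0.18 and -0.11). In SKNO-1 3 of 5 rose with Corin (CDKN1A, NDRG1 and CDKN1B), where 20.5% of all genes rose, and 2 with both, where 24.7% rose. With ATRA NDRG1 rose (1.40) and CDKN1A fell (-1.19), against 2.96% of all genes higher and 3.79% lower.

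The relatives of MYC, which can pair with MAX in its place, were low. MYCN had at most 3 counts in any library and was not tested in either line. MYCL in U-937 stood at 3.93 and 3.70 CPM with DMSO, 1.57 and 1.26 CPM with ATRA, 5.54 and 4.08 CPM with Corin, and 4.40 and 4.89 CPM with both. It fell with ATRA (log2 change -1.43) and was not called with both agents (0.29), and its departure from additivity was 1.37 and called, opposite in sign to that of MYC. In SKNO-1 MYCL had 5 and 1 counts with DMSO, 1 and 1 with ATRA, 20 and 26 with Corin, and 33 and 32 with both, and was called higher in the last 2 groups.

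MLXIP, which encodes the Mondo protein MondoA, was at 28.2 and 24.1 CPM in U-937 with DMSO and at 22.3 and 17.2 CPM with both agents (log2 change -0.40, called lower). MLXIPL, which encodes the related ChREBP, had 2 and 0 counts in U-937 with DMSO and 28 and 16 with both agents, and 0 and 0 counts in SKNO-1 with DMSO and 40 and 28 with both. TXNIP, the MondoA-MLX target that restrains glucose uptake, differed between the lines. In U-937 it stood at 46.8 and 39.0 CPM with DMSO, 121 and 113 CPM with ATRA, 81.6 and 62.6 CPM with Corin, and 329 and 399 CPM with both. These groups did not overlap, and the log2 change with both agents was 3.09. In SKNO-1 TXNIP fell with ATRA (-0.47) and with both agents (-0.31) and rose with Corin (0.28). ARRDC4, the other target followed, had at most 9 counts in any U-937 library and fell in SKNO-1 with ATRA (-0.55) and both agents (-0.58).

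The noncoding genes beside MYC were followed too. PVT1, the long noncoding RNA downstream of MYC, stood in U-937 at 42.0 and 36.5 CPM with DMSO, 17.6 and 14.8 CPM with ATRA, 27.9 and 42.3 CPM with Corin, and 12.9 and 10.3 CPM with both. It fell with ATRA (log2 change -1.28) and with both agents (-1.75), less than MYC did, and its departure from additivity (-0.31) was not called. In SKNO-1, where MYC fell with Corin and with both agents, PVT1 rose with each (0.39 and 0.40). CASC11, which overlaps MYC on the opposite strand, had at most 25 counts in a library against 137 or more for MYC.

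The corepressor through which the MXD proteins act was also measured. Of 17 genes of the SIN3-HDAC complex, 10 fell and 5 rose in U-937 with both agents, where 32.2% of all genes fell and 33.1% rose (median -0.33 against 0.03). In the same list 5 fell and 4 rose with ATRA (20.1% and 21.7% of all genes), and 0 fell and 1 rose with Corin (4.4% and 8.55%). RBBP4 (-1.28), RBBP7 (-1.18), ING2 (-1.11) and SIN3A (-1.03), which are histone-binding, chromatin-reading and scaffold subunits, fell most with both agents. SIN3B (0.46) and ARID4B (0.88) rose. In SKNO-1 9 of the 17 fell and 1 rose with both agents, against 22% and 24.7% of all genes, ING2 again among them (-1.18). Of 12 PRC1.6 partners of MGA, 8 fell and 2 rose in U-937 with both agents, against the same 32.2% and 33.1% (median -0.82 against 0.03), led by WDR5 (-2.36), PCGF6 (-1.78), TFDP1 (-1.496) and L3MBTL2 (-1.21). WDR5, which is also a MYC cofactor, was at 60.5 and 65.1 CPM with DMSO and 11.7 and 12.7 CPM with both. In SKNO-1 8 of the 12 fell and 1 rose with both agents, against 22% and 24.7% of all genes (median -0.32 against 0.05).

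Of 13 cofactors that MYC uses on chromatin, 10 fell and 3 rose in U-937 with both agents, against 32.2% and 33.1% of all genes (median -0.82 against 0.03). The ATPases RUVBL1 (-2.42) and RUVBL2 (-2.04), the chromatin remodeller EP400 (-1.64) and HCFC1 (-1.46) fell most. CDK9, the kinase that releases paused polymerase, rose (0.87), as did ZBTB17 (0.56), the MIZ1 factor through which MYC represses genes, and KAT5 (0.53). In SKNO-1 3 of the 13 fell, near the 22% of all genes, and 1 rose (24.7% of all genes) with both agents, CDK9 again being the gene that rose (0.65). With Corin alone 5 of the 13 fell and 1 rose there, against 17.3% and 20.5% of all genes (median -0.295 against 0.00).

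The genes whose pattern was most like that of MYC were found by Pearson's r over the 16 libraries, on log2 CPM centred within each line, among 9239 genes that averaged 5 CPM or more in both lines. They were NOLC1 (r = 0.997), EIF3B (0.994), DDX31 (0.994), PODXL (0.993) and CD3EAP (0.991). Within the 8 SKNO-1 libraries, where MYC moved little, r for the same genes ranged from 0.769 for CD3EAP to 0.965 for DDX31. The genes most like MXD1 were MEF2A (0.964), RNF24 (0.952), ARID5B (0.937), KCTD6 (0.931) and ASPH (0.916). These values describe libraries that share their treatments, and no p is given.

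In the authors' deposited tables, computed with DESeq2, the same 6 members were under an adjusted p of 0.05 for both agents in U-937 and the same 5 for ATRA in U-937. The authors' deposited table for both agents in U-937 gives MYC a log2 fold change of -5.58 and MXD4 one of 2.21. The authors' deposited tables hold 1 member for Corin in U-937 (MXD1), 2 each for Corin and for both agents in SKNO-1 (MYC and MLX), and 0 for ATRA in SKNO-1. MXD4 with Corin in U-937, MXD1 with Corin in SKNO-1, and MNT and MGA with both agents in SKNO-1 are thus called here and not in the authors' deposited tables.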

How the data were processed

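Total RNA was sequenced from 16 libraries of 2 leukaemia lines. Per the submitters' processing notes, reads were handled with Trimmomatic, STAR, RSEM and DESeq2 on hg38; versions and the annotation release are not given in the sources used here. The deposited gene tables hold, per the file headers, RSEM estimated counts and TPM for each library, and the authors added 6 tables of log2 fold changes and adjusted p-values from DESeq2. The deposited p-value and log2 columns served only for comparison. Of the positive estimated counts 20.4% were not whole, because reads that fit several genes are divided, and strand use is not stated, so members that overlap other genes are uncertain. The table has 0 spike-in entries, so RNA per cell was not measured.

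The estimated counts were rounded, which changed a library total by at most 42.0 counts. Genes were filtered with filterByExpr (17479 in SKNO-1, 17717 in U-937, 19872 in both), scaled by TMM, and tested with edgeR 4.0.16 (robust quasi-likelihood, R 4.3.3) on all 8 libraries of a line, or all 16 for contrasts between lines, with Benjamini-Hochberg adjustment over all genes. SE is the log2 change over the root of F. Changes of single genes are unmoderated, and medians of lists and of all genes are over edgeR's moderated changes, so they differ slightly for low genes. On counts simulated for ATRA against DMSO with a fixed dispersion, 83% of 2-fold changes in SKNO-1 (14735 genes) and 85% in U-937 (14746 genes) were recovered. The simulated counts held no GC trend like that between the SKNO-1 DMSO libraries and no change smaller than 2-fold.

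The members and lists were chosen with earlier results of these data known. Besides members, the text names at most the 4 called genes of each list with the largest change in a comparison, a few fixed relatives and neighbours, and the 5 genes most like MYC or MXD1. CDKN1B, GADD45A, SIN3B, ARID4B, KAT5, ZBTB17, CDK9, FBXW7 and any gene named outside that rule were added after their values were seen. Alternatives were other size factors, library totals, DESeq2 (version 1.42.0), no filter, GC removal, a replicate block, only the libraries compared, and leaving out each library. The same alternatives for the counts of the lists of MYC-activated and MYC-repressed genes were chosen after seeing the data. Replicate numbers were shared across groups, but same-numbered libraries deviated together with correlations of -0.514 to 0.439, so they were not treated as pairs. Some marker genes of other cell types are not reported here.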

Additional observations from a re-analysis of the deposited data

Results flagged for a closer look

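The responses of some members differed between the lines by a test of the difference itself, given here as the log2 response in U-937 minus that in SKNO-1 with the adjusted p of edgeR's quasi-likelihood test over all genes. With ATRA the difference was -2.34 for MYC (adjusted p = 2.85e-10), 1.58 for MXD3 (adjusted p = 0.0057), 0.94 for MXD4 (adjusted p = 0.011) and 0.41 for MLX (adjusted p = 0.0193). With Corin it was 0.38 for MYC (adjusted p = 0.0496). With both agents it was -5.03 for MYC (adjusted p = 1.43e-14), 1.81 for MXD4 (adjusted p = 7.56e-06), 0.91 for MLX (adjusted p = 4.01e-06), 0.71 for MXI1 (adjusted p = 0.000105), 0.61 for MXD1 (adjusted p = 0.00508) and 0.55 for MAX (adjusted p = 0.00101).

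Several of these calls depend on single libraries. MLX with ATRA lost its call in 11 of the 16 fits that leave out 1 library. MXD4 with ATRA lost it without SKNO-1 DMSO replicate 1 (0.46), SKNO-1 ATRA replicate 1 (0.85), U-937 DMSO replicate 2 (0.85) or U-937 ATRA replicate 2 (0.78), and MXD3 with ATRA without U-937 DMSO replicate 2 (1.202, adjusted p = 0.0579). MXD1 with both agents lost its call on library totals (0.45, adjusted p = 0.0649).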

How the results depend on the processing

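Counts of members called moved as follows. The share of all genes called in each of these fits is not given here, so a moved count is not read as particular to the members. With other size factors (RLE), adding ATRA to Corin in SKNO-1 changed 2 members in place of 1, and the Corin response differed between lines for 0 in place of 1. With DESeq2 these counts were 3 and 2, and Corin in U-937 changed 1 in place of 2. With no filter adding ATRA to Corin in SKNO-1 changed 2. After removal of the GC trend ATRA in SKNO-1 changed 2 in place of 0 (MXD1 and MXI1), adding Corin to ATRA there 5 in place of 3, adding ATRA to Corin there 0, and the Corin response differed for 2. With only the 4 libraries compared, the SKNO-1 counts were 1 for Corin in place of 3, 2 for both agents in place of 4, 6 for adding Corin to ATRA and 5 for adding ATRA to Corin.

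Leaving out 1 library at a time gave, in SKNO-1, 0 to 6 members for ATRA, 0 to 6 for Corin, 2 to 7 for both agents, 1 to 6 for adding Corin to ATRA, 0 to 5 for adding ATRA to Corin and 0 to 2 for departure from additivity. In U-937 it gave 0 to 2 for Corin, 4 to 5 for ATRA and 6 for both agents in every fit. The difference between lines covered 1 to 4 members for ATRA and 0 to 4 for Corin. MXD4 in SKNO-1 changed sign with the DMSO library left out: 0.42 with ATRA and 0.41 with Corin without replicate 1, and -0.36 with each without replicate 2. An arm left with 1 library is assumed to vary like the other groups.

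Same-numbered libraries deviated together in some pairs of groups and apart in others (correlations of -0.514 to 0.439), so the numbers do not pair the samples. With them as a replicate block, adding ATRA to Corin in SKNO-1 changed 0 members and the Corin response differed between lines for 0. Of 144 member values, called or not, 140 stayed called or stayed uncalled, and 4 lost the call. The direction of values called in neither fit was not compared. MYC in U-937 with ATRA and with both agents kept its call and direction in every alternative run. Library totals moved the median of all genes for the difference between lines with both agents to -0.26, from -0.11. With 2 libraries per group a small change, such as those in SKNO-1, can pass or miss the threshold on 1 library.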

Other observations

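Genes that set the stability of the MYC protein were followed as a list of 11, of which 10 were tested. In U-937 5 fell and 1 rose with both agents, where 32.2% of all genes fell and 33.1% rose (median log2 change -0.53 against 0.03). SKP2 (-1.85) and the kinase AURKA (-1.31) fell, as did CIP2A (-1.27), which shields MYC from dephosphorylation, and USP28 (-1.05), a deubiquitinase. FBXW7, the ubiquitin ligase that marks MYC for destruction, rose by 0.32. CIP2A rose with ATRA alone (0.58), and its departure from additivity was -1.77. In SKNO-1 6 of the 10 fell with Corin (17.3% of all genes) and 4 with both agents (22%), SKP2 among them (-0.76 and -0.80).

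Of 10 germ cell genes that PRC1.6 is known to silence, 3 were tested in each line. With both agents SYCP3 rose (1.53) and SMC1B fell (-2.25) in U-937, while in SKNO-1 SMC1B rose (1.19) and SYCP3 fell (-1.38). CCDC26, a noncoding gene far downstream of MYC, fell in U-937 with ATRA (-3.82) and with both agents (-2.74) and rose with Corin (0.66), and in SKNO-1 it rose with Corin (1.49) and with both agents (1.10).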
